A study of Mus musculus with 4 samples.

Results

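Jaml encodes a leukocyte adhesion receptor of the immunoglobulin superfamily, and its best-known binding partner is the product of Cxadr, the coxsackievirus and adenovirus receptor of epithelial tight junctions. The 10 symbols described here are Jaml, Cxadr and 8 relatives of the junctional adhesion molecule (JAM) and cortical thymocyte marker (CTX) group: F11r, Jam2, Jam3, Igsf5, Igsf11, Esam, Clmp and Gpa33. They were chosen by name and matched 11 of the 56393 Ensembl genes in the count table, because 2 Ensembl genes carry the symbol Igsf5. Of the 11, 6 were among the 14187 genes whose mean estimated count reached 50.

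RNA was sequenced from MPC, a conditionally immortalised mouse podocyte line, in 4 libraries. The groups were cells with a Jaml hairpin in high glucose (sh-JAML/HG), cells with the Jaml hairpin without added glucose (sh-JAML), cells with a control hairpin in high glucose (sh-NC/HG) and cells with the control hairpin without added glucose (sh-NC). High glucose meant D-glucose brought to 40 mmol/L in the medium for 24 h, and the labels name no osmotic control. All cells had grown at 33 °C with 20 U/ml interferon-gamma and had then spent 7 days at 37 °C without it to differentiate. The series' design text speaks of 4 samples in high glucose and 4 without it, and 4 libraries in all were analysed here. Each group is 1 library of 1 line, so no spread between cultures can be given. The labels give neither the hairpin sequences nor the way they were delivered.

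The extracellular immunoglobulin domains of these proteins bind each other across the gap between neighbouring cells, and several also bind leukocyte integrins. The cytoplasmic tails of several, though not of all, recruit PDZ-domain scaffolds such as ZO-1, PAR3, afadin and the MAGI proteins. These scaffolds tie such receptors to tight junctions and to cell polarity. JAML itself is best known from neutrophils, monocytes and gamma-delta T cells, where contact with CXADR on epithelium serves migration and costimulation. In podocytes the slit diaphragm takes the place of the ordinary tight junction and holds several tight-junction proteins.

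Depth was 83551812 units in sh-JAML/HG, 79330461 in sh-JAML, 94341975 in sh-NC/HG and 80599238 in sh-NC. Low values piled up at multiples of 4, so 4 units were taken as 1 sequenced fragment, and the floor is 3 fragments (12 units). Levels are CPM, counts relative to library size after TMM scaling between libraries, and CPM per kb of exon where genes are compared with each other. Intervals are exact 95% intervals for counting error only. Of the podocyte markers, Synpo (172 to 246 CPM) and Nes (394 to 620 CPM) were well expressed, while Nphs1 stayed at or below 0.440 CPM. The library least like the others was sh-NC/HG. In it 566 genes were at least 2-fold above and 388 at least 2-fold below the mean of the other 3 libraries, against 67 to 93 above and 275 to 332 below for the others. Mitochondrially encoded mRNAs took 1.33% of its units, against 1.95% to 2.15% in the other 3. Summed markers also differed between libraries. The 10 podocyte markers summed to 832 CPM in sh-JAML/HG, 887 in sh-JAML, 1201 in sh-NC/HG and 1022 in sh-NC. The 10 tubule markers summed to 850, 1077, 1333 and 1053 CPM in that order of libraries, and the 7 mesenchymal markers to 871, 864, 815 and 1220 CPM. A few genes carried each sum: Nes, Cd2ap and Synpo for podocyte, Cdh16, Lrp2 and Pax8 for tubule, Acta2 and Pdgfrb for mesenchymal. Des, a mesenchymal marker of low count, was highest in sh-NC/HG (2.31 CPM), where the mesenchymal sum was lowest. The part of these features in the differences below was not tested.

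Promoter sequence was at hand for 4 of the 10 symbols, and 3 are shown to set the silent Jaml and the nearly silent Gpa33 beside the abundant F11r. Each is the 250 bases before the RefSeq start on GRCm38.p6, plus strand, with CG dinucleotides in capitals. They cover chr9:45078933-45079182 for Jaml, chr1:166129971-166130220 for Gpa33 and chr1:171437311-171437560 for F11r.
Jaml: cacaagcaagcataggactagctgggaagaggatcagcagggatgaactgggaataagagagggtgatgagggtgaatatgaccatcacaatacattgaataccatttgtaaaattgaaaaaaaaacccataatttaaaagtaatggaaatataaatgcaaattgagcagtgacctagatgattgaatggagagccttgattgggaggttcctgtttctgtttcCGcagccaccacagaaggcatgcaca
Gpa33: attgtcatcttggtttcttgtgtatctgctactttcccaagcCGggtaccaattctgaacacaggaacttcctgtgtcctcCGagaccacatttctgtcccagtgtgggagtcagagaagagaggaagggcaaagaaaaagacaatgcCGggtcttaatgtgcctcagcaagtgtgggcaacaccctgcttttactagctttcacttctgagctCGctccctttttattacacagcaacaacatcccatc
F11r: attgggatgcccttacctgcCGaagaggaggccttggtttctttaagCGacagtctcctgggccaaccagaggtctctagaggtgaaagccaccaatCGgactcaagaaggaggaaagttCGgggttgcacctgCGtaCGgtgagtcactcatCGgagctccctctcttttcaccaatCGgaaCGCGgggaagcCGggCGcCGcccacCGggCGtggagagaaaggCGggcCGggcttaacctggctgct
The Jaml window held 1 CG, the Gpa33 window 4 and the F11r window 17, against a median of 6 over 27025 promoter windows of the same length. At least 1 CG, as in Jaml, was present in 91.7% of those windows, at least 4 in 61.9% and at least 17 in 23.6%. At most 1 CG was present in 19.4% of the windows and at most 4, as in Gpa33, in 44.5%. The GC content was 40.8% for Jaml, 47.6% for Gpa33 and 60.0% for F11r. The letters GGGCGG, searched on both strands, occurred once in the F11r window and not in the other 2 shown, and 32.9% of all windows held them. The Igsf11 window of the same table lies inside the annotated gene and held 16 CG.

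Jaml, the gene at which the hairpin was aimed (ENSMUSG00000048534, mm10 chromosome 9, 45079183 to 45108534), had a count of 0 in sh-JAML/HG, sh-JAML, sh-NC/HG and sh-NC. By the floor of 3 fragments, a count of 0 allows up to 0.142 CPM in sh-JAML/HG, 0.150 CPM in sh-JAML, 0.129 CPM in sh-NC/HG and 0.151 CPM in sh-NC. The upper ends of the exact 2-sided intervals are somewhat higher, at 0.174, 0.184, 0.158 and 0.185 CPM in that order. An effect of the hairpin on Jaml mRNA was therefore not measurable at this depth. A count of 0 in all 4 libraries was found for 5231 of 21903 protein-coding genes (23.9%). Only 12.8% of the exon bases of Jaml are shared with another gene, the antisense lincRNA Gm10684, which was also at 0 in the 4 libraries.

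Few fragments came from the genes around Jaml. Of the 16 other annotated genes within 100 kb, 10 had a count of 0 in all 4 libraries, 14 were at or under the floor in all 4, and none passed the count minimum. Over the whole table, 49.5% of genes were at 0 in all 4 libraries and 65.4% at or under the floor. Of the 9 protein-coding genes in the window, 4 were at 0 and 7 at or under the floor in all 4, against 23.9% and 35.3% of protein-coding genes in the table. Mpzl3, a myelin protein zero-like adhesion gene next to Jaml, had 5 units in sh-JAML/HG, 16 in sh-JAML, 5 in sh-NC/HG and 25 in sh-NC. Its neighbour Mpzl2 had 0, 9, 13 and 5 units in the same order of libraries. These were the 2 genes of the window above the floor in any library, so the counts there describe a few fragments. The T-cell receptor genes Cd3d and Cd3g had no count, and Cd3e had 5 units in sh-JAML and 0 in the other 3.

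**Figure D1:**
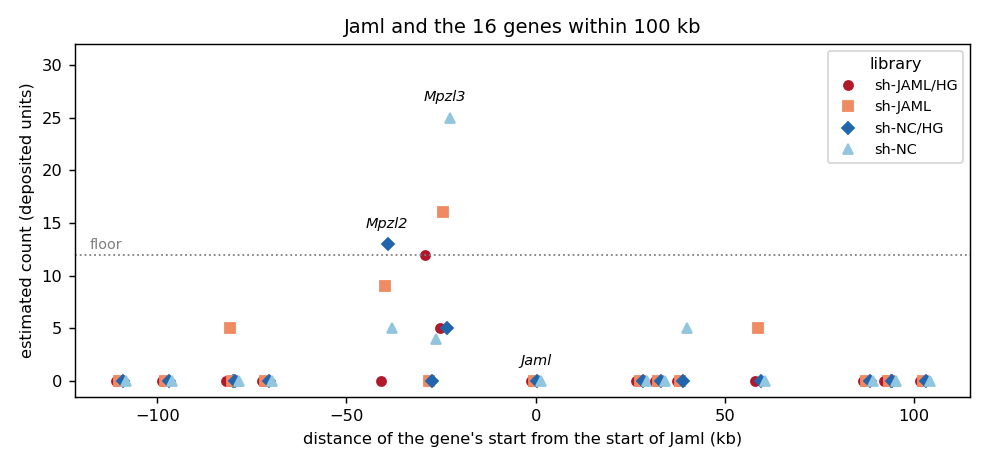
Estimated counts (deposited units, linear axis) of Jaml and of the 16 genes within 100 kb, placed by the distance of each gene's start from the start of Jaml in kb, with 1 symbol per library and the floor of 12 units as a dotted line. Jaml lies at 0 in every library, and Mpzl3 and Mpzl2 are the only genes with a point above the floor.

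Leukocyte markers were listed because leukocytes are the cells best known to express Jaml. Of 15 leukocyte markers, 4 were past the count minimum and 6 were at or under the floor in all 4 libraries. In the whole table, 14187 of 56393 genes were past the minimum. At or under the floor in all 4 libraries were 65.4% of all genes and 35.3% of protein-coding genes. Their summed level was 88.3 CPM in sh-JAML/HG, 96.4 in sh-JAML, 87.3 in sh-NC/HG and 99.4 in sh-NC. Most of that sum came from Csf1r, the receptor gene of macrophage colony-stimulating factor (50 to 62.1 CPM), and Cd14, a lipopolysaccharide co-receptor gene (28.7 to 34.0 CPM). Ptprc, which encodes the pan-leukocyte protein CD45, had 0 units in sh-JAML/HG, 24 in sh-JAML, 16 in sh-NC/HG and 25 in sh-NC. Lyz2, the myeloid lysozyme gene, had 5 units in sh-JAML/HG, 162 in sh-JAML, 282 in sh-NC/HG and 170 in sh-NC. Ptprc and Lyz2 were thus at or under the floor in sh-JAML/HG and above it in the other 3 libraries, while Jaml was at 0 in all 4. So were Adgre1 (0, 23, 48 and 16 units in that order of libraries) and Cd79a (6, 16, 18 and 15 units). Of the markers with this pattern only Lyz2 was past the count minimum, and the others rested on a few fragments. Csf1r, Cd14 and Cd68, the other markers past the count minimum, did not share this pattern. They stood at 56.3, 28.7 and 3.10 CPM in sh-JAML/HG, against 55.9, 34.0 and 2.99 in sh-JAML. The share of all genes with the pattern was not counted.

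Cxadr (ENSMUSG00000022865, chromosome 16, 78301489 to 78359774) was the most abundant gene of the group per kb of exon. It stood at 381 CPM (372 to 389) in sh-JAML/HG, 374 (365 to 382) in sh-JAML, 522 (513 to 531) in sh-NC/HG and 419 (410 to 428) in sh-NC. The sh-NC/HG library was the highest and both sh-JAML libraries lay below both sh-NC libraries. Per kb, its level was at least 1050-fold to 1705-fold above Jaml with Jaml set to the floor, depending on the library. A stretch of 9.46% of its exon bases is shared with other genes, nearly all of it with Btg3 on the opposite strand, whose 2623 to 4094 units were far fewer than the 29995 to 48708 of Cxadr.

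F11r (ENSMUSG00000038235, chromosome 1, 171437535 to 171464603) encodes JAM-A, a tight-junction protein of epithelium, endothelium and platelets. It stood at 124 CPM (119 to 129) in sh-JAML/HG, 110 (106 to 115) in sh-JAML, 182 (177 to 188) in sh-NC/HG and 124 (119 to 129) in sh-NC. The sh-NC/HG library was again the highest, and sh-JAML/HG and sh-NC had overlapping intervals. No exon base of F11r is shared with another gene.

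Igsf5 (ENSMUSG00000000159, chromosome 16, 96361668 to 96422121) encodes JAM4, which binds the scaffold MAGI-1 and was described in the mouse glomerulus. It stood at 50 CPM (47.1 to 53.1) in sh-JAML/HG, 50.9 (47.9 to 54.2) in sh-JAML, 42.5 (39.9 to 45.2) in sh-NC/HG and 57.0 (53.8 to 60.4) in sh-NC. Here sh-NC/HG was the lowest library and sh-NC the highest, with both sh-JAML libraries between them. The second Ensembl gene named Igsf5 (ENSMUSG00000117081, chromosome 16, 96361794 to 96525580) reaches into Pcp4, and all of its 1031 exon bases lie in exons of other genes, 788 of them in Igsf5. It had 153 units in sh-JAML/HG, 0 in sh-JAML, 361 in sh-NC/HG and 172 in sh-NC. How its counts were divided from those of Igsf5 and Pcp4 is not given in the sources used here, so they are uncertain. The sum of both entries stood at 51.8 CPM in sh-JAML/HG, 50.9 in sh-JAML, 46.4 in sh-NC/HG and 59.2 in sh-NC, which kept the order seen at both ends.

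Jam3 (ENSMUSG00000031990, chromosome 9, 27097384 to 27155421, minus strand) encodes JAM-C, which binds JAM-B and the leukocyte integrin Mac-1. It stood at 21.7 CPM (19.8 to 23.8) in sh-JAML/HG, 19.9 (18 to 22.0) in sh-JAML, 14.6 (13.1 to 16.2) in sh-NC/HG and 24.2 (22.1 to 26.4) in sh-NC. The sh-NC/HG interval lay below the other 3. Exon bases shared with the antisense gene Gm48796 make up 36.2% of Jam3, and no source used here states whether counting used strand. Gm48796 had 256 units in sh-JAML/HG, 319 in sh-JAML, 413 in sh-NC/HG and 277 in sh-NC, so the antisense gene was highest in the library where Jam3 was lowest.

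Igsf11 (ENSMUSG00000022790, chromosome 16, 38892671 to 39027159) encodes a homophilic adhesion protein of brain and testis, also called VSIG3. It stood at 3.33 CPM (2.58 to 4.18) in sh-JAML/HG, 3.34 (2.59 to 4.24) in sh-JAML, 0.857 (0.524 to 1.32) in sh-NC/HG and 2.40 (1.78 to 3.20) in sh-NC. The sh-NC/HG interval, resting on 20 fragments, lay below the other 3, which overlapped each other.

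The remaining 4 genes had at most 12 fragments in a library and did not reach the count minimum. Esam was above the floor in all 4 libraries, Jam2 in 3, Clmp in 1 and Gpa33 in 0. Esam, an adhesion gene of endothelium and platelets, had 35, 34, 49 and 33 units in sh-JAML/HG, sh-JAML, sh-NC/HG and sh-NC, and all 4 intervals overlapped. Jam2, the gene for the endothelial protein JAM-B, had 15, 13, 8 and 18 units in that order. Clmp, a CXADR-like adhesion gene, had 0, 16, 5 and 5 units, and Gpa33, the A33 antigen gene of intestinal epithelium, had 9, 0, 0 and 4 units. Endothelial markers were likewise near 0: of 8 listed, 6 were at or under the floor in all 4 libraries, Kdr, Tie1 and Cldn5 at 0. The share at or under the floor was 35.3% over protein-coding genes. Their summed level was 1.05 CPM in sh-JAML/HG, 1.59 in sh-JAML, 4.26 in sh-NC/HG and 1.17 in sh-NC. Flt1, a receptor gene for VEGF, made up most of it.

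Per kb of exon, the mean level over the 4 libraries fell in the order Cxadr (57.2 CPM per kb), F11r (50.8), Igsf5 (19.9), Jam3 (6.28), the second Igsf5 gene (1.90), Igsf11 (0.552), Esam (0.155), Jam2 (0.0269), Clmp (0.0172), Gpa33 (0.0143) and Jaml (0). The ranges over libraries of Cxadr (50.5 to 70.5) and F11r (41.5 to 68.5) overlapped, although Cxadr was above F11r within each library. Igsf5 (16.9 to 22.6) and Jam3 (4.56 to 7.56) did not overlap with each other or with their neighbours in this order. Jam2, Clmp and Gpa33 could not be ordered at this depth. In a bulk sample, fewer cells expressing a gene and less RNA per cell cannot be told apart.

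**Figure D2:**
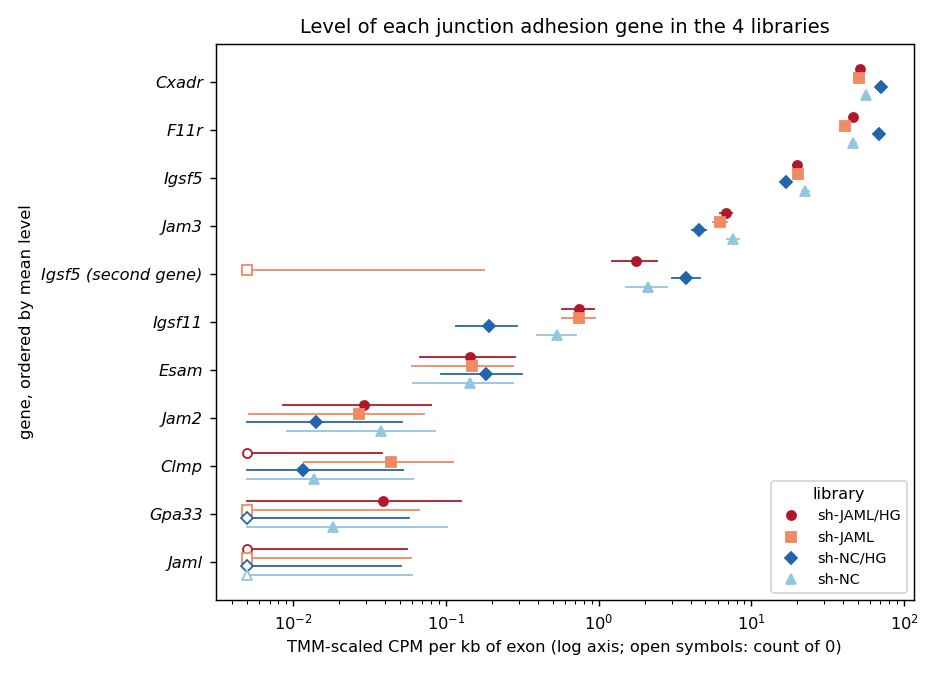
Level of each of the 11 Ensembl genes in TMM-scaled CPM per kb of exon (log axis), with 1 symbol and exact 95% counting interval per library and open symbols, drawn at the left end of the scale, for a count of 0. The points of Cxadr, F11r, Igsf5 and Jam3 lie above those of the rest. In sh-NC/HG the intervals of Jam3 and the second Igsf5 gene overlap. The sh-NC/HG library is the highest point for Cxadr and F11r and the lowest for Igsf5, Jam3 and Igsf11.

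High glucose in cells with the Jaml hairpin left the well-counted genes close to their basal level. In sh-JAML/HG against sh-JAML, the ratio was 1.02-fold (0.987 to 1.05) for Cxadr, 1.12-fold (1.06 to 1.19) for F11r, 1.09-fold (0.95 to 1.25) for Jam3, 0.982-fold (0.9 to 1.07) for Igsf5 and 0.998-fold (0.699 to 1.41) for Igsf11. Of these 5 intervals, F11r had the only one that left out 1. The second Igsf5 gene was at least 12.1-fold higher in sh-JAML/HG with the 0 of sh-JAML set to the floor, and the exact 2-sided interval starts at 9.31-fold. It was the 1 member of 6 at least 2-fold apart, where 2.88% of all 14187 genes were (1.31% higher and 1.56% lower). With both Igsf5 entries summed, 0 of 5 were that far apart.

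High glucose in cells with the control hairpin went with larger differences, in both directions. In sh-NC/HG against sh-NC, F11r was 1.47-fold higher (1.40 to 1.55) and Cxadr 1.25-fold higher (1.21 to 1.28). Igsf11 was 2.78-fold lower (1.64 to 5.01), Jam3 1.66-fold lower (1.44 to 1.91) and Igsf5 1.34-fold lower (1.23 to 1.46). Igsf11 was the 1 member of 6 at least 2-fold apart, against 7.92% of all genes (4.65% higher and 3.27% lower). A log2 ratio as far from 0 as that of Igsf11 (-1.47) was found for 3.45% of genes, as far as that of Jam3 (-0.73) for 13.7%, as far as that of F11r (0.56) for 20.4% and as far as that of Cxadr (0.32) for 38.9%. The second Igsf5 gene was 1.78-fold higher (1.23 to 2.63).

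In high glucose, the Jaml hairpin library showed ratios of the opposite sign; both comparisons share the sh-NC/HG library, here as the denominator. In sh-JAML/HG against sh-NC/HG, F11r was 1.47-fold lower (1.40 to 1.55) and Cxadr 1.37-fold lower (1.33 to 1.41). Igsf11 was 3.85-fold higher (2.32 to 6.70), Jam3 1.49-fold higher (1.29 to 1.72) and Igsf5 1.18-fold higher (1.08 to 1.28). The second Igsf5 gene was 2.13-fold lower (1.45 to 3.23). Igsf11 and the second Igsf5 gene were the 2 of 6 members at least 2-fold apart, against 7.59% of all genes (2.81% higher and 4.78% lower). The sum of both Igsf5 entries was 1.12-fold higher (1.03 to 1.22), and with it 1 of 5 was that far apart.

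Without added glucose, the hairpin libraries were closer to each other. In sh-JAML against sh-NC, Cxadr was 1.12-fold lower (1.09 to 1.16), F11r 1.12-fold lower (1.06 to 1.19), Igsf5 1.12-fold lower (1.03 to 1.22) and Jam3 1.21-fold lower (1.06 to 1.39). Igsf11 was 1.39-fold higher (0.941 to 2.05), with an interval that included 1. The second Igsf5 gene was at least 14.5-fold lower with the 0 of sh-JAML set to the floor, and the exact 2-sided interval starts at 11.3-fold. It was the 1 of 6 members at least 2-fold apart, against 2.71% of all genes (1.31% higher and 1.4% lower). With both Igsf5 entries summed, 0 of 5 were. Log2 ratios as far from 0 as those of Cxadr (-0.17), F11r (-0.17) and Igsf5 (-0.16) were found for 38.3% to 39.0% of all genes.

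**Figure D3:**
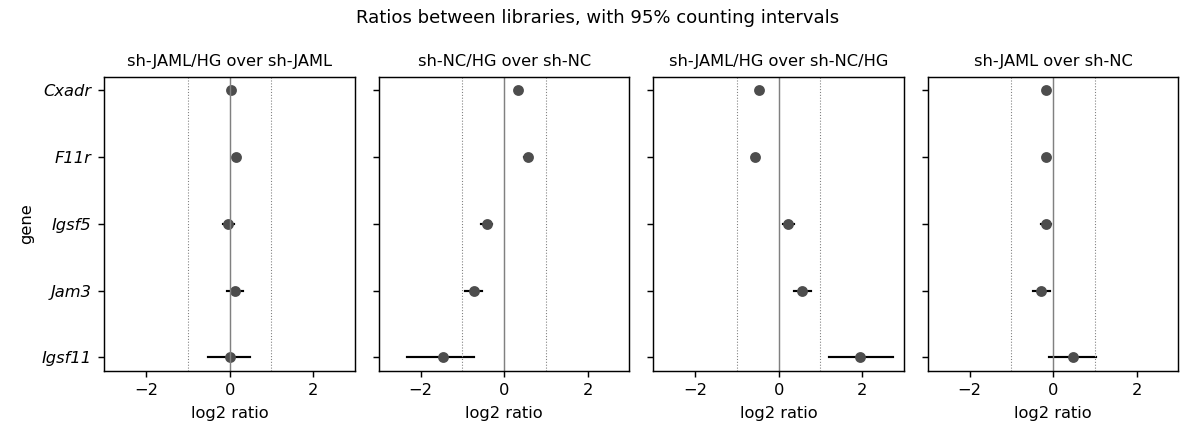
Log2 ratios of 5 of the 6 genes past the count minimum in the 4 pairs of libraries (the second Igsf5 gene, at 0 in sh-JAML, is not drawn), with exact 95% counting intervals as bars and dotted lines at 2-fold. These 5 ratios stay near 0 in sh-JAML/HG over sh-JAML, and the 2 pairs that hold sh-NC/HG, on top in one and below in the other, are opposite in sign for each gene.

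Across the 4 libraries, the glucose log2 ratio of sh-JAML cells minus that of sh-NC cells was -0.29 (-0.35 to -0.23) for Cxadr, -0.39 (-0.50 to -0.29) for F11r, 0.40 (0.22 to 0.57) for Igsf5, 0.85 (0.57 to 1.13) for Jam3 and 1.47 (0.58 to 2.37) for Igsf11. These approximate 95% intervals cover counting error, and without replicates the difference could not be tested. In each gene the sh-NC/HG value departed most from the mean of the other 3 libraries, by 0.42 for Cxadr, 0.61 for F11r, -0.31 for Igsf5, -0.59 for Jam3 and -1.80 for Igsf11 on the log2 scale.

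An additive model with a term for glucose and a term for hairpin was fitted to all 14187 genes and tested by quasi-likelihood in edgeR. It has 1 residual degree of freedom, and its p-values treat departure from additivity as error. None of the 6 members passed in either term at an adjusted p under 0.05, or at an unadjusted p under 0.05. The test called 1 gene for glucose (0.00705% of all genes) and 0 for hairpin (0.0%), with 397 genes (2.8%) and 400 genes (2.82%) at an unadjusted p under 0.05, and DESeq2 called 53 and 48. The log2 change with glucose was 0.36 for F11r (edgeR adjusted p = 0.927), 0.17 for Cxadr, -0.22 for Igsf5, -0.30 for Jam3 and -0.73 for Igsf11. With the Jaml hairpin it was -0.36 for F11r (edgeR adjusted p = 0.933), -0.31 for Cxadr, 0.04 for Igsf5, 0.15 for Jam3 and 1.21 for Igsf11. With glucose, F11r, Cxadr and the second Igsf5 gene were higher and Igsf5 lower in 2 of 2 pairs. However, the intervals of Cxadr and Igsf5 in the sh-JAML pair included 1. Igsf11 was lower in the sh-NC pair and without a direction in the sh-JAML pair (0.998-fold, 0.699 to 1.41). The sum of both Igsf5 entries was 1.02-fold higher (0.933 to 1.11) in the sh-JAML pair and 1.28-fold lower (1.17 to 1.39) in the sh-NC pair. With the Jaml hairpin, F11r, Cxadr and the second Igsf5 gene were lower and Igsf11 higher in 2 of 2 pairs, the interval of Igsf11 without added glucose including 1. The share of all genes with the same direction in both pairs was not counted for either term. No member passed under DESeq2 or limma-voom either, and the lowest unadjusted p was that of Igsf11 for hairpin in DESeq2 (0.046, adjusted p = 1.0).

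Partners of JAM and CXADR proteins, most of them cytoplasmic, were listed as well. Of 29 listed genes, 28 were past the count minimum, against 14187 of 56393 genes in the whole table. Prkci, the atypical protein kinase C of the polarity complex, had the highest level per kb, with 639 CPM in sh-JAML/HG, 565 in sh-JAML, 652 in sh-NC/HG and 659 in sh-NC. Cttn, the gene of the actin-binding protein cortactin, stood between 380 and 447 CPM. In sh-JAML/HG against sh-JAML, 0 of 28 were at least 2-fold apart, against 2.88% of all genes, and the median log2 ratio was 0.04. In sh-NC/HG against sh-NC, 1 of 28 was at least 2-fold lower and 0 higher, against 7.92% of all genes either way, and the median was 0.11. That gene was Prkcz, a second atypical protein kinase C, which was 2.63-fold lower (1.96 to 3.56). Prkcz was also the 1 partner past 2-fold when sh-JAML/HG was set against sh-NC/HG, where it was 2.86-fold higher (2.15 to 3.86) and the median was -0.01, against 7.59% of all genes 2-fold apart. In sh-JAML against sh-NC, 0 of 28 were that far apart, against 2.71% of all genes, and the median was -0.06. The medians over all genes were 0 to 2 decimals in each pair, and none of the 28 partners passed the additive model in edgeR.

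Other adhesion genes of the same superfamily, among them nectins and CADM genes, were measured for 10 of 21 listed. Nectin2, which encodes an adherens-junction protein, had the highest level per kb, at 97.8 CPM in sh-JAML/HG, 97.1 in sh-JAML, 150 in sh-NC/HG and 106 in sh-NC. The sh-NC/HG library was the highest, as for Cxadr and F11r. Mpzl1, a myelin protein zero-like gene, stood between 65.7 and 69.4 CPM. Cadm4, a cell adhesion gene of the nectin-like group, was at 62.5 CPM in sh-NC/HG and 25.4 CPM in sh-NC, 2.46-fold higher (2.22 to 2.73). It was at 31.0 CPM in sh-JAML/HG, 2.02-fold lower (1.84 to 2.21) than in sh-NC/HG. Cadm2, another gene of that group, was 2.87-fold higher (1.32 to 7.19) in sh-JAML/HG than in sh-NC/HG, at 1.16 and 0.396 CPM. In sh-JAML/HG against sh-JAML all 10 had a ratio above 1, as did 49.9% of all genes, with a median log2 ratio of 0.10. None of the 10 was at least 2-fold apart, against 2.88% of all genes. In sh-NC/HG against sh-NC 5 were above 1 and 5 below, with a median of -0.11, and 1 was at least 2-fold apart, against 7.92% of all genes. In sh-JAML/HG against sh-NC/HG 1 was at least 2-fold higher and 1 lower, against 7.59% of all genes either way, with a median of 0.25. In sh-JAML against sh-NC 0 were, against 2.71% of all genes, with a median of -0.09.

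Integrin subunits that bind JAM or JAML proteins were present for adherent cells and scarce for leukocytes. Itgb1, the common beta-1 subunit gene, stood at 1463 CPM in sh-JAML/HG, 1459 in sh-JAML, 1456 in sh-NC/HG and 1813 in sh-NC. Itga3, the laminin-binding alpha-3 subunit gene of podocytes, stood between 443 and 624 CPM. Itga4, whose product pairs with beta-1 to bind JAML, had 8 units in sh-JAML/HG, 24 in sh-JAML, 0 in sh-NC/HG and 5 in sh-NC. Itgam, the alpha subunit gene of Mac-1, had 0, 4, 0 and 4 units in that order. Itgal, the alpha subunit gene of the JAM-A ligand LFA-1, stood at 0.378 CPM in sh-JAML/HG, 0.922 in sh-JAML, 2.11 in sh-NC/HG and 0.842 in sh-NC. High glucose went with a 2.39-fold lower level (0.981 to 6.30) in the sh-JAML pair and a 2.49-fold higher level (1.39 to 4.55) in the sh-NC pair. Between the high-glucose libraries the sh-JAML/HG level was 5.44-fold lower (2.61 to 13.6). The sh-JAML/HG level of Itgal rests on 32 units. Of the 6 measured subunits, no other was 2-fold apart in a pair, and in edgeR's additive model none passed. Itgal was thus 1 of 6 in each of these pairs, against 2.88%, 7.92% and 7.59% of all genes in that order. In sh-JAML against sh-NC 0 of 6 were, against 2.71% of all genes.

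**Figure D4:**
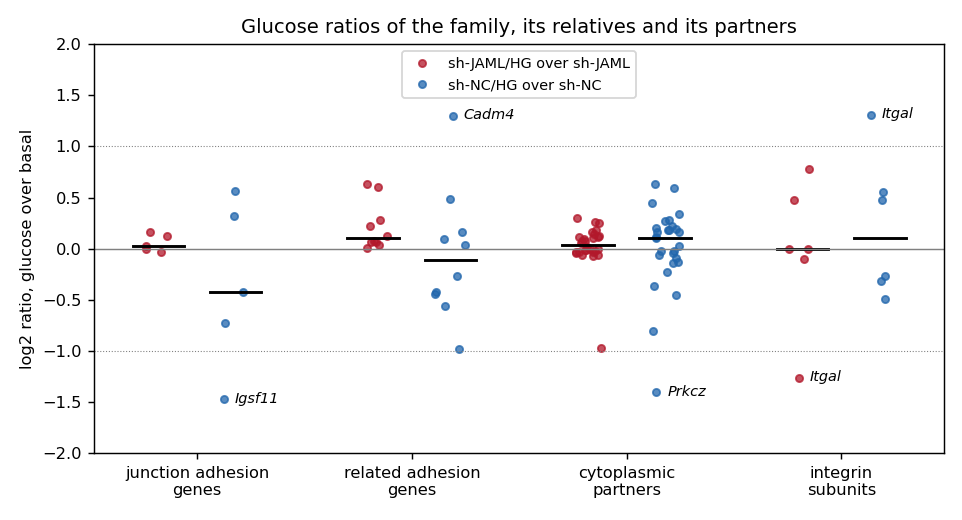
Glucose log2 ratios of 5 junction adhesion genes, 10 related adhesion genes, 28 partners (most of them cytoplasmic) and 6 integrin subunits. In each group sh-JAML/HG over sh-JAML lies left of sh-NC/HG over sh-NC, with 1 point per gene. Bars mark the median and dotted lines 2-fold. Points beyond 2-fold are Igsf11, Cadm4, Prkcz and Itgal in the sh-NC pair and Itgal in the sh-JAML pair.

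Genes whose pattern over the 4 libraries was nearest to a member were sought among 11064 genes whose mean count reached 400, by the distance of their centred log2 levels. The nearest were Tmem97, Lgals1 and Etf1 for Cxadr (0.019 to 0.033 log2 units), Tpst1, Ssu72 and Slc4a7 for F11r (0.016 to 0.035), Castor1, Preb and Degs1 for Igsf5 (0.021 to 0.025), and Fdx1l, Spryd7 and Ostm1 for Jam3 (0.023 to 0.054). Within 0.1 log2 units lay 108 genes for Cxadr, 22 for F11r, 166 for Igsf5 and 23 for Jam3. Tpst1, a protein tyrosine sulfotransferase gene, had 43.7 CPM in sh-JAML/HG, 38.9 in sh-JAML, 64.0 in sh-NC/HG and 44.1 in sh-NC.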

How the data were processed

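Total RNA of 4 samples was sequenced after TruSeq preparation, per the labels. Per the submitters' processing notes, CASAVA 1.8 and TopHat2 2.0.6 were used with build mm10. No source used here names the counter or the annotation. The authors deposited an estimated count per Ensembl gene, unscaled and already whole. Columns named by condition were matched to titles, the control columns naming no hairpin. GENCODE M21 named 55394 of 56393 genes and gave positions, union exon lengths and shared exon bases; promoters came from RefSeq (GRCm38.p6).

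Counts were scaled with TMM (R 4.3.3, edgeR 4.0.16), with log2 ratios at a prior count of 1, a mean count minimum of 50 and 2-fold as apart. Ratio intervals are Clopper-Pearson, conditional on the summed fragments; level intervals are exact Poisson. Pairs have 1 library per group and no test. The additive model used edgeR, with limma 3.58.1 (voom) and DESeq2 1.42.0 as alternatives and Benjamini-Hochberg adjustment. Its glucose effect was also simulated for 14187 genes, equal under both hairpins, at assumed dispersions of 0.02 and 0.05. Of 50 genes with a 2-fold change, 43 were called at 0.02 and 20 at 0.05. With a 4-fold change, 50 of 50 were called at both, and 8 and 9 of 13987 unchanged genes were called. Counts were drawn in deposited units, of which 4 were taken as 1 fragment, so the simulated counting error was smaller than that of fragments. Departure from additivity was not simulated either. For both reasons these counts do not give the power in the real libraries. Other steps used Python 3.11.15, numpy 2.4.6, pandas 2.3.3, scipy 1.17.1 and matplotlib 3.10.9.

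Members and lists were chosen with earlier results of these data known. Named genes were all members, the 3 nearest patterns of members with a mean count of at least 400, and, from the relatives, partners, integrins and Jaml locus, genes at least 2-fold apart, otherwise the 2 highest per kb. Both kinds are given here, and Cd3d, Cd3e, Cd3g, Mpzl2, Mpzl3, Itga4, Itgam and the marker genes named were chosen after their values were seen. Mpp5 stands for the listed Pals1. Alternatives were other scalings, count minimums, prior count, fold, tools and genes without shared exons. Summing the Igsf5 entries was added after the data were seen.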

Additional observations from a re-analysis of the deposited data

Results flagged for a closer look

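Jam3 and Igsf5 lay on opposite sides of 0 in the hairpin comparison at the 2 glucose levels, with both counting intervals leaving out a ratio of 1. The log2 ratio of Jam3 was 0.57 in sh-JAML/HG over sh-NC/HG and -0.28 in sh-JAML over sh-NC. That of Igsf5 was 0.23 in sh-JAML/HG over sh-NC/HG and -0.16 in sh-JAML over sh-NC, and with both Igsf5 entries summed it was 0.16 and -0.22. Each side is 1 pair of libraries, and the difference was not tested.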

How the results depend on the processing

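No paired analysis was possible because each group has 1 library and the labels give no replicate numbers; leaving out a library would leave the additive model no residual degrees of freedom. Under DESeq2 size factors, total library size and a prior count of 4, all 72 member ratios stayed within their counting intervals, no sign of a called ratio turned, and the counts of members at least 2-fold apart did not move. At 1.5-fold, 3 of 6 members were apart in sh-NC/HG over sh-NC: Igsf11, Jam3 and the second Igsf5 gene, whose counts are uncertain. The share of all genes at 1.5-fold was not counted. A ratio as far as the 1.47-fold of F11r, just under that limit, was found for 20.4% of all genes in this pair. With both Igsf5 entries summed, the members apart were 0 in sh-JAML/HG over sh-JAML, 1 in sh-JAML/HG over sh-NC/HG and 0 in sh-JAML over sh-NC. Over all genes, without a count minimum the genes at least 2-fold apart were 7220 in sh-JAML/HG over sh-JAML, 7971 in sh-NC/HG over sh-NC, 7541 in sh-JAML/HG over sh-NC/HG and 7318 in sh-JAML over sh-NC. At a mean count of at least 200 they were 139, 600, 566 and 138 in that order, and among genes with under 10% shared exon bases 243 in sh-JAML over sh-NC. The additive model called 53 genes for glucose and 48 for hairpin with DESeq2, and for glucose 0 with limma-voom, 0 without a count minimum and 0 among genes with under 10% shared exon bases; the cause was not tested. Counts under 12 units describe single fragments.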
